A study of Homo sapiens with 8 samples.

Results

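The genes of the TGFβ ligands and receptors were followed through the chromatin accessibility of their surroundings in MCF10A cells. They were 3 ligand genes (TGFB1, TGFB2 and TGFB3), the type I receptor genes TGFBR1, ACVR1 and ACVR1B, the type II receptor genes TGFBR2 and BMPR2, and the co-receptor genes TGFBR3 and ENG. The 10 genes were taken by symbol and not by a measured value, though with earlier results of these data known. Peaks of 4 lists were merged where they shared at least 1 bp, and a merged region belonged to a gene when it overlapped the gene body or the 50 kb on either side. Of 126658 merged regions, 150 met this rule, from 5 at TGFB3 to 27 at TGFBR3. Of these, 73 had their summit inside a gene body of the 10, 67 lay within 3 kb of an annotated transcription start, and 83 lay farther away and are called distal here. The nearest protein-coding start was that of the gene itself for 100 regions, and a neighbour is given for the other regions named.

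MCF10A is an immortalized, non-tumorigenic human mammary epithelial line, used here with the wild-type genotype. All cells grew with horse serum, EGF, hydrocortisone, cholera toxin and insulin. They received either solvent, which was BSA in PBS, or 5 ng/ml recombinant human TGFβ1 for 6, 24 or 72 h, with 2 replicates per condition and 8 libraries in all. In the labels the solvent libraries stand at 0 h, but the study's own drawing of the experiment has them on solvent for 72 h. ATAC-seq, in which a transposase cuts open chromatin, was deposited as 1 peak list per condition that the authors called on both replicates together, so no value below has a replicate error and no difference could be tested. In a population of cells, a region open in fewer cells and a region less open in each cell cannot be told apart. As a check of the line, 6 of 7 epithelial genes (EPCAM, CDH1, KRT5, KRT14, KRT18 and ITGB4) had a promoter peak in every list and TP63 had none at its canonical start. None of 2 endothelial genes and 1 of 3 leukocyte genes (PTPRC) had one, as did 1 of 3 fibroblast genes in solvent (PDGFRA) and 2 of 3 with TGFβ1 (LUM in addition). PTPRC had an unscaled AUC of 377 in solvent and 1034 at 72 h, and the source of this peak was not tested.

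TGFβ ligands are secreted in a latent complex and, once released, bring type II and type I receptors together. The type II kinase phosphorylates the type I kinase, which phosphorylates SMAD proteins that enter the nucleus and bind DNA with partners such as AP-1. Co-receptors bind ligand and present it to the kinases, and the pathway is a classical inducer of epithelial-mesenchymal transition in mammary epithelium.

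The level of a region is given as AUC, the peak caller's area under the significance curve, summed over the region's peaks in a list. AUC was divided by 1.36, 1.30 and 1.19 in the 6, 24 and 72 h lists. These factors set the median log2 ratio to solvent at regions within 3 kb of a start to 0, so that the typical promoter is flat by construction. A region was called opened when a TGFβ1 list had a peak and solvent had none, closed in the reverse case, and higher or lower when both had a peak and scaled AUC differed at least 2-fold. Series of values run in the order of solvent, 6, 24 and 72 h.

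Around these genes more regions opened than closed with TGFβ1. The opened share lay at or below that of all regions, and the closed and higher shares lay above it. At 6, 24 and 72 h, opened regions numbered 28, 35 and 34 of 150 (18.7%, 23.3% and 22.7%), against 19.3%, 27.6% and 27% of all 126658 regions. Closed were 1, 4 and 6 regions (0.667%, 2.67% and 4%), against 0.465%, 1.21% and 2.24% of all regions. Higher were 4, 12 and 14 regions (2.67%, 8% and 9.33%), against 2.23%, 5.35% and 6.6%. Lower were 0, 0 and 2 regions, against 0.139%, 0.598% and 0.774%. At 72 h the 95% Wilson intervals, which cover counting error only, were 16.7 to 30% for opened, 1.85 to 8.45% for closed and 5.64 to 15.1% for higher regions, and each held the share of all regions. The calling limit of AUC 200 corresponds to a scaled AUC of 147, 154 and 169 in the 6, 24 and 72 h lists, and 5 of the 34 regions opened at 72 h had a scaled AUC under 200. With a scaled AUC of at least 400 required, 11 regions opened at 72 h (7.33%, all regions 8.67%) and 2 closed (1.33%, all regions 0.428%). With all 4 lists cut to the 86209 peaks of largest AUC, opened and closed shares were equal at 24 and 72 h (9.45% each).

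Of the 34 regions open at 72 h but not in solvent, 22 had a peak at 6 h and 7 more at 24 h, and 5 had one at 72 h alone. These patterns made up 14.7%, 4.67% and 3.33% of the window regions, against 14.3%, 7.55% and 4.61% of all regions. Scaled AUC was largest at 72 h in 22 of the 34, at 24 h in 10 and at 6 h in 2. The 34 were chosen by their 72 h peak, which tilts this profile towards 72 h. Of the 42 regions opened at any time, scaled AUC was largest at 72 h in 22, at 24 h in 13 and at 6 h in 7. All 14 regions that were higher at 72 h had a peak at every time, and 10 of them rose at each step. By gene, most regions opened at 72 h lay at TGFB2 (8 of 23), ACVR1 (6 of 16), TGFBR1 (5 of 8) and TGFBR2 (4 of 16). At TGFB3 it was 3 of 5, and of all regions 27% were opened. Most closed ones lay at TGFBR3 (4 of 27), against 2.24% of all regions. Such counts also grow with the number of regions in a window.

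**Figure D1:**
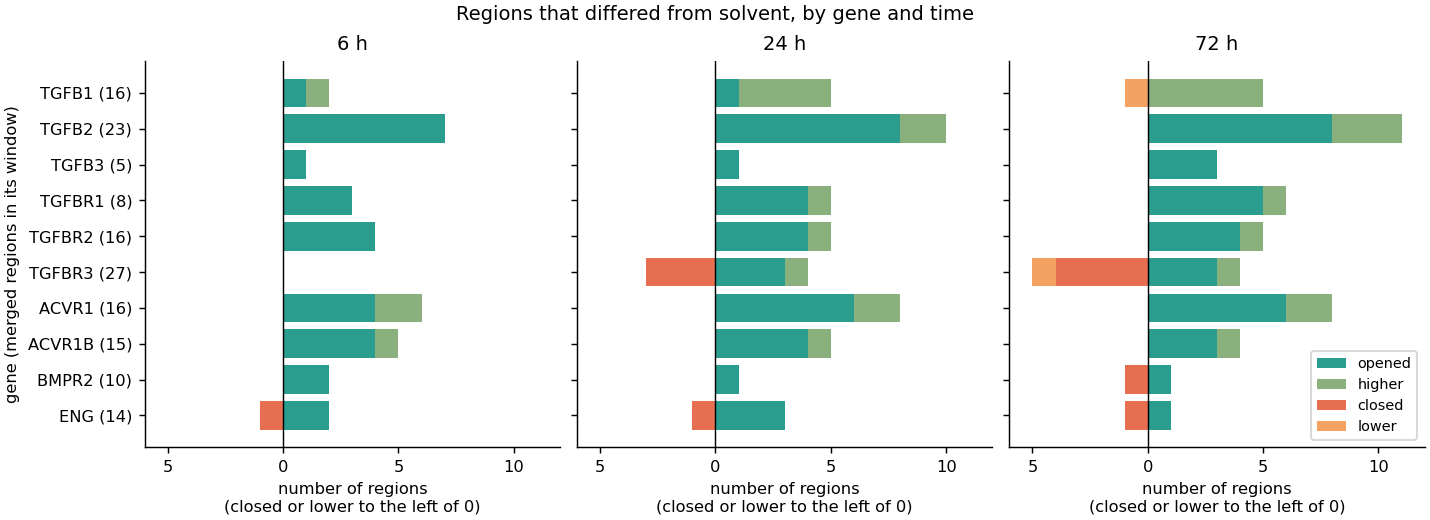
Number of merged regions per gene that were opened or higher (right of 0) and closed or lower (left of 0) against solvent at 6, 24 and 72 h, with the number of regions of each gene in brackets. At 72 h TGFB2 had 8 opened and 3 higher regions, and TGFBR3 had 4 of the 6 closed regions.

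The sequences below are the 201 bp around the summit of regions that carry the differences described, on the plus strand of GRCh38. Capitals mark matches to the motif letters searched on both strands: TGACTCA (AP-1), CACCTG (E-box), GTCTNGAC (SMAD), ACATTCC (TEAD) and TGTGGTT (RUNX). A window in lower case throughout holds none of these letters. The first group opened or became more accessible with TGFβ1 and covers ligand and receptor genes.
TGFB1 intron with CCDC97 as nearest start, higher, chr19:41324929-41325129: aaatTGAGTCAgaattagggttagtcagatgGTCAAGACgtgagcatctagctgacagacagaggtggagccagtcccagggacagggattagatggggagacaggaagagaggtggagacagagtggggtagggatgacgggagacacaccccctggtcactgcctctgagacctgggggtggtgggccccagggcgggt
TGFB2 intron, opened, chr1:218375042-218375242: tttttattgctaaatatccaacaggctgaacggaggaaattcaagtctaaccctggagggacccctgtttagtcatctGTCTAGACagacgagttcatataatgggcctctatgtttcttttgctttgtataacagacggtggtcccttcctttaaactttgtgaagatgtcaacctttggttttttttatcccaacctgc
TGFB2 intron, opened, chr1:218410021-218410221: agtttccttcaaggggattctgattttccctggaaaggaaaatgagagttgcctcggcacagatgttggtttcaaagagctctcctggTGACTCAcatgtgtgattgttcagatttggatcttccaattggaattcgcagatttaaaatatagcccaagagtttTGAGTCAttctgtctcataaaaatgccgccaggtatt
TGFBR1 upstream within COL15A1, opened, chr9:99055493-99055693: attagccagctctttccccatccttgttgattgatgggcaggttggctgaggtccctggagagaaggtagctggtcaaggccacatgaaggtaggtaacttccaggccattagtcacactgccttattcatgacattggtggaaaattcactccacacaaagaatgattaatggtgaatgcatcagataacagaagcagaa
TGFBR1 upstream, opened, chr9:99103150-99103350: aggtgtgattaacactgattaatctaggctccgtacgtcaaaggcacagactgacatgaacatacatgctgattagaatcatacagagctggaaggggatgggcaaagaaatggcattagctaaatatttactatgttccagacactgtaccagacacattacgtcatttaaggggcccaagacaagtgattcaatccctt
TGFBR2 intron, higher, chr3:30659552-30659752: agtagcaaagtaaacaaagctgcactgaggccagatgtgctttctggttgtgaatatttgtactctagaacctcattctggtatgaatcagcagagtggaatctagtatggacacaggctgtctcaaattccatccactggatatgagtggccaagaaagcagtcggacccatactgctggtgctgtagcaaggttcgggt
ACVR1 intron, opened, chr2:157855742-157855942: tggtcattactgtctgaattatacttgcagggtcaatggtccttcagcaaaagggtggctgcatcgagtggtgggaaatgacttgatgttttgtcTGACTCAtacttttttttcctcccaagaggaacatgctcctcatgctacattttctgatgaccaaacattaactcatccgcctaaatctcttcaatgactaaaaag
ACVR1 intron, higher, chr2:157786384-157786584: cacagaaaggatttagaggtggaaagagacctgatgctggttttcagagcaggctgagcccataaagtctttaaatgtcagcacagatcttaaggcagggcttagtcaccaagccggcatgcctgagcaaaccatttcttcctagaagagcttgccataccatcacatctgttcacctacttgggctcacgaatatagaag
ACVR1B intron, higher, chr12:51971081-51971281: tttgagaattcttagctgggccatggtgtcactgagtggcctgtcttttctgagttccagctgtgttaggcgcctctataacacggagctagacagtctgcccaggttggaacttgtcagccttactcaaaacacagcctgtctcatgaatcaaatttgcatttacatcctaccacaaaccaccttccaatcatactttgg

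The second group lost accessibility and comes from TGFBR3.
TGFBR3 intron, closed, chr1:91894492-91894692: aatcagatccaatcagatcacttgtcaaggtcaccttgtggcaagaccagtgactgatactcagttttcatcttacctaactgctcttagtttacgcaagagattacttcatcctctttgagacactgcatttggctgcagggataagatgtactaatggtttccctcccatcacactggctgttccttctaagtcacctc
TGFBR3 intron, lower, chr1:91878487-91878687: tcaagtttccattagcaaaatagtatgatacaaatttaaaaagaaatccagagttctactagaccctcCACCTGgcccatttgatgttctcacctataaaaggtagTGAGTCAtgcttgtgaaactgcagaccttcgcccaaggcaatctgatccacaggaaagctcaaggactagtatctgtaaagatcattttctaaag

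The last sequence is the 250 bp before the TGFB2 start in the RefSeq promoter set (GRCh38.p14), shown because this window held a TEAD match while the log2 ratio of the promoter peak was 0.08 at 72 h.
TGFB2 promoter, chr1:218345086-218345335: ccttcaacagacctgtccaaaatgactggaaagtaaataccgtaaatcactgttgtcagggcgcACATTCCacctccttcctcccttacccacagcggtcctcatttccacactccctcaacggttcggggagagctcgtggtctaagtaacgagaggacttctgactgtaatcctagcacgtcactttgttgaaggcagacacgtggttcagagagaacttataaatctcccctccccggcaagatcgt

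The promoter of a gene is here the region at its canonical start. The promoters of all 10 genes carried a strong peak in every list, and none differed from solvent by 2-fold at any time. Other starts did show differences. Of 28 regions within 3 kb of any start of the gene itself, 4 were opened and 3 higher at 72 h (14.3% and 10.7%). Of all regions within 3 kb of a start, 16.4% were opened and 4.17% higher. Of 11537 protein-coding promoter regions with a solvent peak, 11235, 11220 and 11188 also had a peak at 6, 24 and 72 h. Among these shared regions, 0.436%, 0.918% and 0.903% differed by 2-fold. Per covered base in solvent, the promoter of TGFBR1 had the highest scaled AUC (3.70), followed by ACVR1 (3.19), TGFBR2 (2.84), BMPR2 (2.73), TGFB3 (2.67), ACVR1B (2.56), TGFB2 (2.44), TGFBR3 (2.37), ENG (1.98) and TGFB1 (1.66). With no replicate spread, neighbours in this order cannot be ranked with certainty.

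The largest promoter differences belonged to the co-receptors and to TGFBR2. At TGFBR3 (chr1:91884703-91886601) scaled AUC was 4004, 3879, 3806 and 3287 in solvent and at 6, 24 and 72 h, a log2 ratio of -0.28 at 72 h. At ENG (chr9:127853570-127854921) it was 1694, 1923, 2081 and 1927, with log2 ratios of 0.18, 0.30 and 0.19. At TGFBR2 (chr3:30605636-30607716) it was 5329.6, 5149, 4609 and 4836, lowest at 24 h with a log2 ratio of -0.21. At 72 h the 10 log2 ratios lay between -0.28 and 0.19, inside the 5th to 95th percentile of all protein-coding promoters (-0.32 to 0.32, median -0.086). Without scaling, 9 of the 10 promoters were above 0 at 72 h, and TGFBR3 was at -0.04.

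The other promoters moved less by 72 h. TGFB1 (chr19:41352347-41354256) had scaled AUCs of 3126, 3521, 3293 and 3222. TGFB2 (chr1:218344889-218346507) had 3629, 3430.1, 3785 and 3847, and TGFB3 (chr14:75981646-75983102) had 2895, 2922, 2942 and 2813. Next come the type I receptors. TGFBR1 (chr9:99104313-99106094) had 6197, 6058, 6065 and 6295, ACVR1 (chr2:157874975-157877061) had 6394, 6288, 6066 and 6007 and ACVR1B (chr12:51951103-51952111) had 2032, 2125, 2097 and 2104. BMPR2 (chr2:202374983-202377070) had 5504, 5533, 5353 and 5437. By Euclidean distance over the 3 log2 ratios, the closest pairs were TGFBR1 and BMPR2 (0.058), TGFB3 and BMPR2 (0.068) and ACVR1 and BMPR2 (0.087). These promoters all stayed near their solvent level, so a small distance says only that both were flat. The least similar pair was TGFBR2 and ENG (0.65). With no replicate spread, the distances cannot be ranked with certainty.

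Around TGFB2, which encodes the TGFβ2 ligand, 8 of 23 regions opened and 3 were higher at 72 h, against 27% and 6.6% of all regions. None closed or was lower, against 2.24% and 0.774% of all regions. The intronic region chr1:218409861-218410483, 64.8 kb from the start, had no peak in solvent and scaled AUCs of 404, 817 and 1044 with TGFβ1. The intronic region chr1:218374945-218375386, 29.8 kb from the start and named after its values were seen, had no peak in solvent and scaled AUCs of 536, 627 and 879 with TGFβ1. Both rose at each step from solvent, and the first holds an AP-1 match and the second a SMAD match, as marked in their sequences.

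Downstream of TGFB2, within the non-coding gene LINC02869, scaled AUC was higher as well. The region chr1:218479803-218481694, 135 kb from the start, was already open in solvent and had 1827, 3129.5, 3862 and 4426, a log2 ratio of 1.28 at 72 h. At chr1:218475225-218475610, named after its values were seen, there was no peak in solvent and scaled AUCs of 375, 729.6 and 956 with TGFβ1. By contrast the intronic peaks chr1:218376746-218377862, with 4149, 4136, 4179 and 4480.3, and chr1:218380268-218381161, with 2528, 2454, 2514 and 2682, had log2 ratios of 0.11 and 0.09 at 72 h, and these too were picked after their values were seen.

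TGFB1 encodes the ligand that was added to the cells. None of the 16 regions in its window was counted as opened at 72 h and none as closed. There 5 were higher and 1 was lower, against 6.6% and 0.774% of all regions. TGFB1 was the nearest protein-coding start for only 2 of the 16, and 8 other protein-coding genes overlap the window. Among the higher regions it was nearest only to chr19:41335502-41335840, so most of these counts cannot be assigned to TGFB1 rather than its neighbours. Among the 16, chr19:41376207-41376764 within TMEM91 was opened at 6 and 24 h only (scaled AUC 378 and 327), and was named after its values were seen. The highest ratio was at chr19:41367696-41368343, upstream of TGFB1 and within TMEM91, with 393, 600.5, 1040.1 and 1155 and a log2 ratio of 1.56. Within TGFB1 introns, chr19:41335502-41335840 had 415, 778, 1054 and 984 and chr19:41324635-41325648 had 1014, 2219.9, 2266 and 2037, the latter reaching its level by 6 h. The nearest protein-coding start to the latter was that of CCDC97, 4902 bp away. These 2 were chosen after their values were seen, and the second contains both an AP-1 and a SMAD match. The lower region, chr19:41386450-41387020 inside EXOSC5, which encodes a component of the RNA exosome, lay 2778 bp from the nearest EXOSC5 start and had 1229, 899, 807 and 431 and a log2 ratio of -1.51.

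TGFB3 had only 5 regions, of which 2 were open in solvent: its own promoter and chr14:75985624-75986438, which lies at the start of IFT43 and was named after its values were seen. Of 3 regions opened at 72 h, the strongest was chr14:76023028-76023340, near the start of a transcript in IFT43, with a peak at 72 h alone, of scaled AUC 353. The other 2 had scaled AUCs under 200 at 72 h, within the range where the calling limits of the lists differ.

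TGFBR1 encodes the kinase that phosphorylates SMAD2 and SMAD3. Its peaks numbered 3 in solvent and 6, 7 and 8 in the 6, 24 and 72 h lists. At 72 h, 5 of its 8 regions were opened and 1 was higher, against 27% and 6.6% of all regions. The largest opened region, chr9:99055398-99055758, had no peak in solvent and scaled AUCs of 471, 811 and 1029.7 with TGFβ1 and lay 49.5 kb upstream, within COL15A1, a collagen gene whose start is the nearest one. Its neighbours chr9:99057200-99057467, with no peak in solvent and scaled AUCs of 176, 308 and 645 with TGFβ1, and chr9:99057814-99058221, with a peak at 72 h alone, of scaled AUC 531, also lie in COL15A1 and were picked after their values were seen, so 3 of the 5 opened regions cannot be assigned to TGFBR1 rather than COL15A1.

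Closer to TGFBR1, chr9:99103102-99103423 opened 1.86 kb upstream of the canonical start with no peak in solvent and scaled AUCs of 320.2, 496 and 558 with TGFβ1, chosen after its values were seen. An internal region at an alternative start, chr9:99127483-99128108, had 376, 706, 1155 and 1266 and the highest ratio of the 102 window regions shared with solvent at 72 h, with log2 values of 0.91, 1.62 and 1.75. Its summit window holds a TEAD match.

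ACVR1 encodes a type I receptor mainly known for BMP signals. Of its 16 regions, 6 opened and 2 were higher at 72 h, against 27% and 6.6% of all regions. None closed, against 2.24% of all regions. The opened region of largest AUC was chr2:157900256-157900539, within UPP2 and 24.1 kb upstream, with no peak in solvent and scaled AUCs of 211, 264 and 617 with TGFβ1. In an ACVR1 intron chr2:157855723-157856057 had no peak in solvent and scaled AUCs of 502, 572 and 599.8 with TGFβ1, which was near its final level by 6 h. The intronic region chr2:157786385-157787284 had 391, 1131, 1386 and 1212, with log2 ratios of 1.53, 1.83 and 1.63, and was highest at 24 h. It lay 2953 bp from the nearest ACVR1 start. The first of these intronic regions was named after its values were seen.

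ACVR1B encodes the type I receptor for activins. It had 3 opened regions and 1 higher region of 15 at 72 h, against 27% and 6.6% of all regions. The higher one, chr12:51970902-51971623 in an intron, had 618, 1336, 1497 and 1613 and a log2 ratio of 1.39. The strongest opened one, chr12:51941668-51942022, 9.93 kb upstream, had no peak in solvent and scaled AUCs of 378, 752 and 603 with TGFβ1 and was highest at 24 h. Of the 11 regions shared with solvent, 8 were above 0 on the log2 scale at 72 h. Several of its regions lie in or near NR4A1, a nuclear receptor gene downstream.

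TGFBR2 encodes the type II receptor that binds TGFβ ligands directly. Of 16 regions, 4 opened and 1 was higher at 72 h, against 27% and 6.6% of all regions. None closed, against 2.24% of all regions. The higher region, chr3:30659075-30660012, 53.1 kb into the gene, had 752, 1214, 1599 and 1632 with a log2 ratio of 1.12. Just beside it chr3:30658437-30658867, named after its values were seen, opened with no peak in solvent and scaled AUCs of 383, 535 and 312 with TGFβ1, which was highest at 24 h. The opened region of largest AUC, chr3:30721105-30721390 downstream of the gene, had no peak in solvent and scaled AUCs of 216, 236 and 320.1 with TGFβ1. The RefSeq promoter window of TGFBR2, chr3:30606351-30606650, holds an AP-1 match, as do 4.95% of 35116 promoter windows, and its promoter peak had a log2 ratio of -0.14 at 72 h.

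BMPR2, the type II receptor for BMPs, had the lowest window sum relative to solvent of the 10 genes at 72 h with scaling. Of its 7 regions shared with solvent at 72 h, 5 had a log2 ratio below 0, and 3 did without scaling. Of its 10 regions 1 was closed at 72 h, against 2.24% of all regions. The upstream region chr2:202344189-202344512, picked after its values were seen, had 1109, 885, 753 and 697 with a log2 ratio of -0.67. The intronic region chr2:202379337-202379738 had 516, 464, 364 and 320.2, likewise picked afterwards, with a ratio of -0.69. Its 1 opened region at 72 h, chr2:202609777-202610044 near FAM117B, had no peak in solvent and scaled AUCs of 168, 331 and 218 with TGFβ1.

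TGFBR3 encodes betaglycan, the co-receptor that presents TGFβ2 to the kinases. It had the most closed regions at 72 h, 4 of 27, and 1 lower, against 2.24% closed and 0.774% lower of all regions. The strongest closed region, chr1:91894469-91894718 in an intron, had 402, 411 and 269 up to 24 h and no peak at 72 h, and thus was near its solvent level at 6 h. The others, named after their values were seen, were weaker, with scaled AUCs of 202 to 307 in solvent: chr1:91846028-91846251 had 307 and 197 up to 6 h and no peak later, chr1:91877927-91878083 had 217 and 186 up to 6 h and no peak later and chr1:91900208-91900450 had 202 and 237 up to 6 h and no peak later. The lower region chr1:91878500-91878708, with 482, 324, 276 and 189, fell at each step to a log2 ratio of -1.35 at 72 h. Of 20 shared regions at 72 h, 12 were below 0, and 6 were without scaling.

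Some TGFBR3 regions gained accessibility, chiefly far from its main promoter. The intronic region chr1:91725922-91726251, 160 kb into the gene and 1667 bp from an internal TGFBR3 start, had 288, 528, 767 and 686 with a log2 ratio of 1.25. Of 3 opened regions the strongest was chr1:91941617-91941917, upstream and nearest to BRDT, with no peak in solvent or at 6 h and scaled AUCs of 320.3 and 371 later.

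ENG encodes endoglin, a co-receptor best known from endothelial cells. It had 14 regions, all within 3 kb of a start, and most belong to neighbours such as CDK9, FPGS and AK1. Within ENG, 1 region opened: chr9:127838402-127838698, in an intron, had no peak in solvent and scaled AUCs of 169.5, 455 and 313 with TGFβ1, was highest at 24 h and holds an AP-1 match. The 1 closed region, chr9:127897350-127897507 at the promoter of ST6GALNAC6, had 209 in solvent and no peak later, which lay just above the calling limit.

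Among regions shared with solvent, the distal ones were higher with TGFβ1 relative to those near starts, whose overall median the scaling sets to 0. The median log2 ratio of the distal window regions was 0.097, 0.18 and 0.28 at the successive times, and that of all distal regions was 0.12, 0.23 and 0.27. Window regions within 3 kb of a start had medians of 0.035, -0.0019 and -0.0022. Over all shared window regions the medians were 0.064 (107 regions), 0.031 (104) and 0.050 (102), against 0.064, 0.12 and 0.15 over all shared regions. Without scaling, 85 of 102 shared window regions were above 0 at 72 h, and 59 with it.

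**Figure D2:**
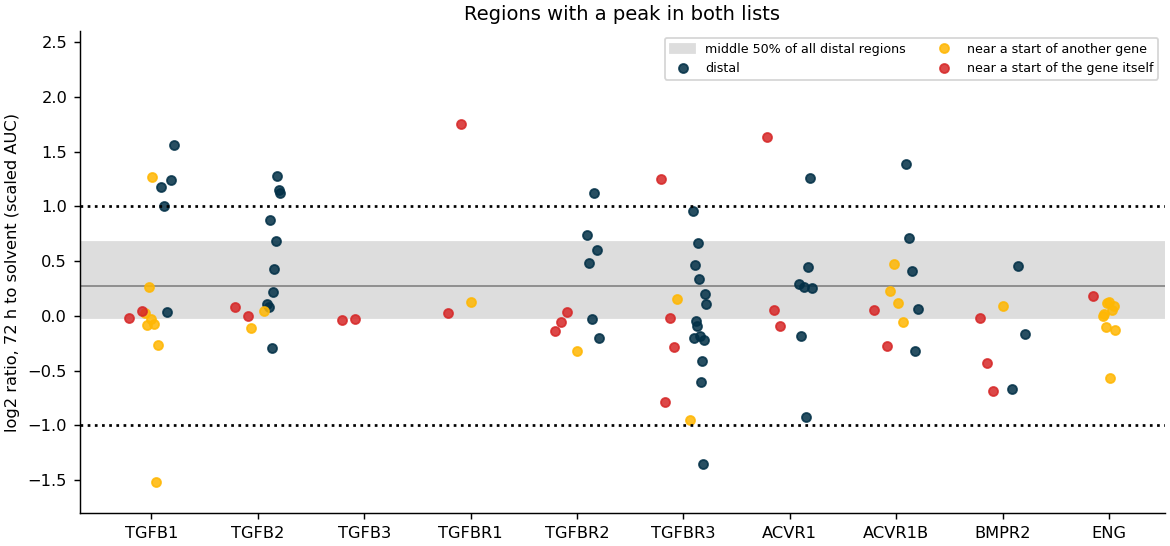
Log2 ratio of scaled AUC at 72 h to solvent for each region with a peak in both lists, by gene and kind of region, with the middle 50% and median of all distal regions in grey and 2-fold limits dotted. Colours separate distal regions from those within 3 kb of a start of the gene itself or of another gene. The highest point is at TGFBR1 (1.75) and the lowest at TGFB1 (-1.51, near EXOSC5).

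The summed scaled AUC of a window was highest relative to solvent at TGFBR1 and TGFB2, where more bases were covered by peaks and AUC per covered base was lower. It was lowest relative to solvent at BMPR2, where it was higher than solvent without scaling. At TGFBR1, 3 of the opened regions in the sum lie in COL15A1. At TGFBR1 the sum was 7068 over 2315 covered bases in solvent and 11207 over 4179 bases at 72 h (3.05 and 2.68 per base), a log2 ratio of 0.67 that exceeded 90.7% of 18784 protein-coding genes. At TGFB2 it was 22394 over 9161 covered bases in solvent and 32014 over 13426 bases at 72 h (2.44 and 2.38 per base), a ratio of 0.52 (86.5% of genes). At BMPR2 it was 10814 over 4770 covered bases in solvent and 9983 over 4744 bases at 72 h (2.27 and 2.10 per base), a ratio of -0.12 (8.58% of genes lower). The median gene had 0.11 and the middle 50% of genes spanned -0.019 to 0.31. TGFBR3 (-0.04) and BMPR2 were below 0 with scaling and above it without (0.21 and 0.13), and ENG (0.04), TGFB1 (0.15), TGFB3 (0.20), TGFBR2 (0.25), ACVR1B (0.30) and ACVR1 (0.34) lay between. A sum moves with the number and width of the peaks called, and the scaled AUC per covered base was lower at 72 h than in solvent for 9 of the 10 genes.

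Motif matches were counted in all 150 summit windows. AP-1 letters were found in 52 windows (34.7%, against 32.3% of all regions), and in 40 of 83 distal ones (48.2%, against 37.5%). Among the 34 regions opened at 72 h 15 held them (44.1%, all opened regions 39.9%), but of the 11 with a scaled AUC of at least 400 only 3 did (27.3%, against 43.2%), and among the 6 closed regions 1 did (all closed regions 7.72%). Of the 14 higher regions 5 held AP-1 letters, against 47.2% of all higher regions. E-box letters, bound by SNAIL and ZEB factors among others, were found in 24 windows (16.0%, against 17.9%). SMAD letters occurred in 3 windows, TEAD in 5 and RUNX in 9, against 1.35%, 4.85% and 6.48% of all regions. A match describes letters only and not binding.

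Other genes of the pathway, a list of 20 with further receptors, ligands and the latency proteins that hold TGFβ inactive, had 281 regions. The window of ACVRL1 overlaps that of ACVR1B, so some of these are also among the 150. At 72 h 52 regions were opened (18.5%, against 27% of all regions), 11 closed (3.91%, against 2.24%), 22 higher (7.83%, against 6.6%) and 2 lower (0.712%, against 0.774%). None of the 15 promoters with a solvent peak differed by 2-fold at any time. By window sum only LRRC32, which tethers latent TGFβ at the cell surface, passed 2-fold at 72 h, with a log2 ratio of 1.05 and no peak at its canonical promoter in any list.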

How the data were processed

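The deposited files are 4 narrowPeak lists, 1 per condition, and the group of each was read from the name the authors gave it. Per the study's methods and the submitters' processing notes, the authors trimmed reads (Trimmomatic 0.38), mapped them to GRCh38 (Bowtie2 2.4.5), filtered them (Picard, SAMtools 1.4.1) and called peaks on both replicates together (Genrich 0.5, ATAC mode, AUC limit 200). The deposited signal value is the AUC, which grows with sequencing depth and with the width of a peak and which the authors left unscaled between lists. The lists hold no reads, so the usable depth behind each list is not known (the methods state only an equal target for every sample), and Wilson intervals cover counting error only. The authors' differential test was not used here.

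Peaks were merged in Python 3.11.15 (numpy 2.4.6, pandas 2.3.3, scipy 1.17.1, matplotlib 3.10.9), with genes from GENCODE 44 and promoter sequences from RefSeq. List scaling shifted log2 AUC by 0.44, 0.38 and 0.25 in the 6, 24 and 72 h lists, from 32923, 32594 and 32098 regions. Named regions were each gene's promoter and, at 72 h, its opened and closed regions of largest AUC and its highest and lowest shared ratio of at least 2-fold, with exceptions named in the text. Members, gene lists and alternatives were chosen with earlier results of these data known. The script was tested on simulated data: for 200 regions of each class set to change among 79292 it recovered 200 opened, 200 closed and 200 higher. The simulated lists were solvent peaks at unchanged positions, without those near the calling limit. The test thus checks the counting only and says nothing of weak calls or shifted peaks. Lower regions were not simulated. Every deposited list column used was mapped to a condition. The values and sequence of 1 region are not reported here.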

Additional observations from a re-analysis of the deposited data

How the results depend on the processing

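Of 669 values recomputed under alternatives, 649 stayed within their limits (95% Wilson interval for shares, 1.5-fold for ratios), 20 moved and 0 turned sign against a called direction. The list factors of 1.36, 1.30 and 1.19 are under 1.5, so leaving out the scaling could not move a ratio past its limit. With scaling, no promoter or window sum of the 10 genes reached 2-fold. Without it, the window sums of TGFBR3 and BMPR2 at 72 h went from below 0 to above 0. Requiring a scaled AUC of at least 400, an alternative chosen after seeing the data, lowered the opened share to 2.67%, 6.67% and 7.33% at 6, 24 and 72 h, and the closed share to 0% at 6 and 24 h and 1.33% at 72 h. With lists of equal length (86209 peaks each, also chosen after seeing the data) 127 window regions remained in the merge, and the opened share was 9.45% at each time and the closed share 9.45% at 24 and 72 h, against 11.2% opened and 8.92% closed of all regions at 24 h and 13.2% and 11.2% at 72 h. The closed share at 6 h, which rests on 1 region, was 0% with peaks of AUC at least 400, with a 10 kb window and with the nearest start, and 4% where peaks had to overlap by 50%, when the closed share at 24 h was 8%. Without scaling, the higher share at 6 h was 10.0%. At a 1.5-fold limit, the higher share at 6 h was 9.33% and the lower share 3.33% at 24 h and 5.33% at 72 h. The excess of opened over closed regions thus shrank to 0 at 24 and 72 h with lists of equal length, and the cause was not tested. No paired analysis was possible because the lists hold no values per replicate, and leaving out a replicate could not be run for the same reason. Depth limits what can be said of weak regions near the calling limit.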

Other observations

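The following values were picked from the list of other pathway genes after they were seen, and none has a replicate error. Of all merged regions 27% were opened, 2.24% closed and 6.6% higher at 72 h, against which the counts below are to be read. LTBP1, which anchors latent TGFβ in the matrix, had 42 regions, of which 15 opened and 8 were higher at 72 h, and its window sum had a log2 ratio of 0.71 to solvent. BMPR1B, a type I receptor for BMPs, had 11 opened and 4 higher regions of 27 at 72 h and a window sum of 0.62. The promoter of INHBA, which encodes an activin subunit, had scaled AUCs of 940.0, 1132, 1335 and 1494 in solvent and at 6, 24 and 72 h, a log2 ratio of 0.67 at 72 h. That of GDF15, a stress-induced ligand, had 1452, 1684, 1384.5 and 861, a log2 ratio of -0.75. LTBP3 had 4 closed regions of 28 at 72 h and 1 opened one, and its promoter stood at 2367 in solvent and 2913 at 72 h.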
